A study of Mus musculus with 80 samples.

Results

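Chromatin modifier and remodeller genes were followed in the lungs of mice from 17 to 743 days of age. Members were the genes whose symbol began with Hdac, Sirt, Kdm, Kmt, Kat and a digit, Setd, Smarc, Chd and a digit, Dnmt, Brd and a digit, Ing1 to Ing5, Cbx, Ezh, Mbd, Mbtd or Mphosph8, and that at least 1 array spot named with no other gene. Kdm5c, Kdm5d and Kdm6a were left out by the rule. This gave 78 genes of 7151 named alone, on 133 of the spots of both arrays. Of these genes, 40 had 1 spot and 38 had 2 to 4, and the spot of highest mean over all mice stood for its gene. The rule read only gene symbols and mean levels, but it was chosen with earlier results of these data known. A further 7 genes that fit by name, among them Ezh2, Sirt2 and Sirt3, were named only on spots that also name another gene and were not taken.

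The study compared C57BL/6 mice by age and sex, all on regular feed without restriction, with no transgene, deletion or drug in any group. Total lung RNA of 40 mice, 20 of them male, was labelled with 33P-dCTP as cDNA and hybridised to 2 arrays per mouse, mouse17K-A and mouse17K-B. The 8 groups held 5 males or 5 females each in 4 age classes (17 to 44, 169 to 194, 476 to 499 and 704 to 743 days), and each replicate was a separate mouse. The youngest group has a gap in its ages, with 5 mice of 17 to 21 days (2 males, the younger set) and 5 of 33 to 44 days (3 males, the older set). The description of the male of 714 days carries the text of the male of 43 days. The arrays of these 2 mice were not identical, with correlations of 0.936 and 0.937, and leaving the older male out moved no member across the threshold.

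DNA in the nucleus is wound around histones, and enzymes add or remove acetyl and methyl groups on the histone tails or methyl groups on the DNA itself. Acetyltransferases and deacetylases act on acetyl marks, methyltransferases and demethylases act on methyl marks, reader proteins bind those marks, and remodellers use ATP to slide or evict nucleosomes. In the lung, deacetylases and DNA methyltransferases are studied in postnatal growth, inflammation and ageing, and polycomb and heterochromatin proteins hold genes silent in many cell types.

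Levels were z scores as the authors deposited them, so 0 is the mean of all spots of an array and 1 is the SD of its spots. A z score places a spot among all spots on its array, it does not rank one gene against another, and the scale under it is not known, so no fold is given. Each array correlated with the others of its age class at a mean from 0.876 to 0.964 on the first array and from 0.918 to 0.969 on the second. The same was not done between classes, and the males of 714 and 43 days, of different classes, correlated at 0.936 and 0.937. Genes marking lung cells lay on both sides of the array mean. Above it were the 1 macrophage gene (Lyz2, 2.39), both endothelial genes and 5 of 6 fibroblast and matrix genes, but only 2 of 4 club and ciliated genes (Cbr2 1.42, Tekt2 -2.19), 1 of 4 alveolar type II genes (Slc34a2 0.86, Muc1 -0.908) and not the 1 alveolar type I gene (Cav1, -0.106). The liver genes Apoa1 and Alb were at 1.56 and 0.778, so a z above 0 does not by itself show which cells a spot reads. All RNA came from whole lung, in which fewer cells of a type and less RNA per cell cannot be told apart.

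The members spanned most of the range of the array. Mean levels of the 78 chosen spots ran from -1.56 for Kat8, an acetyltransferase of histone H4, to 2.79 for Cbx5, which encodes the heterochromatin protein HP1 alpha, with 42 above 0 and 36 below. Their median was 0.178, against 0.0395 over the brightest spots of all 7151 genes. The brightest spots after Cbx5 belonged to Kdm7a, a demethylase, at 1.92, Smarcb1, a core subunit of the SWI/SNF remodelling complex, at 1.78, Chd1l at 1.65 and Mphosph8, a reader of methylated H3K9 in the HUSH silencing complex, at 1.56. The SD over the 40 mice was between 0.11 and 0.675. It was smallest for the demethylase Kdm5b, at 0.11, and largest for Dnmt3b at 0.675, Cbx5 at 0.654 and Kmt5c at 0.635. The value of Dnmt3b rested on 1 female of 169 days at -5.22, with the next mouse of that age group at -1.51.

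The largest differences among members lay within the youngest group. Between 17 to 21 days and 33 to 44 days, 13 of the 78 genes passed the threshold, which is a limma adjusted p under 0.05 over all spots of both arrays. This is 16.7% of the members, where 7.48% of all spots and 9.2% of the brightest spots of all 7151 genes passed. Of the members' 55 other spots 2 passed (3.64%). The median level of the 13 was 1.18, against -0.104 for the other members. The 12 that fell (15.4% of members, 5.52% of spots) were Kmt5c, Cbx5, Chd1, Dnmt3a, Kdm5a, Kdm7a, Smarcd2, Cbx1, Mbtd1, Smarca5, Hdac2 and Hdac11, and the 1 that rose (1.28% of members, 1.96% of spots) was Mphosph8. Over the brightest spots of all genes 7.34% fell and 1.86% rose. The median difference over the 78 genes was -0.0138, against 0.0183 over all spots, with 45 below 0 and 33 above. At an unadjusted p under 0.05 there were 18 lower (10.2% of spots) and 4 higher (9.24% of spots). A correction took away, on each array, the median shift of the 24 spots in the block and column of the gene, its own spot among them. After it Mphosph8 kept 0.899 of its difference, the other 12 kept at most 0.668 of theirs, and 0 of the 13 passed.

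Among the writers and erasers of DNA and histone methylation, 4 genes fell. Kmt5c, which trimethylates H4K20 in heterochromatin, read 1.46, 1.25 and 1.69 in the females of 17, 19 and 21 days and 1.27 and 1.77 in the males of 17 and 19 days. The females of 33 and 40 days read -0.07 and 0.78, and the males of 40, 43 and 44 days read 0.06, 0.09 and 0.34. Every mouse of the younger set was above every mouse of the older set. The difference was -1.23 (SE 0.161, limma adjusted p = 0.0102), from 1.49 ± 0.237 to 0.24 ± 0.336 (SD, n = 5 each). Dnmt3a, a de novo DNA methyltransferase, read 1.73 to 2.01 (median 1.86) in the younger set and 0.89 to 1.51 (median 1.06) in the older set. Its sets did not overlap either, and it fell by 0.659 (SE 0.123, adjusted p = 0.0154). Kdm5a, a demethylase of H3K4, fell by 0.656 (SE 0.13, adjusted p = 0.0158), from 1.63 ± 0.151 to 0.948 ± 0.283 (SD, n = 5 each). Kdm7a, a demethylase of H3K9 and H3K27, fell by 0.56 (SE 0.11, adjusted p = 0.0156), from 2.42 ± 0.177 to 1.85 ± 0.177 (SD, n = 5 each). The other 14 genes of the lysine methyltransferase group, which by symbol also takes in Ezhip, did not pass and ranged from -0.258 for Setd3, which methylates actin, to 0.162 for Setdb1, an H3K9 methyltransferase. The other DNA methyltransferase, Dnmt3b, read -0.174 (SE 0.117, adjusted p = 0.483).

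Of the 9 methyl-lysine readers, 3 fell and 1 rose. Cbx5 read 3.26 to 4.37 (median 4.01) in the younger set and 2.39 to 3.19 (median 2.59) in the older set, with no overlap. Its difference was -1.19 (SE 0.205, adjusted p = 0.0127). Cbx1, the paralog HP1 beta, fell by 0.563 (SE 0.126, adjusted p = 0.0218), but its sets overlapped, since the female of 40 days at -0.19 was above the male of 17 days at -0.2. Mbtd1, an MBT-domain reader of H4K20 methylation, fell by 0.498 at its brightest spot (SE 0.117, adjusted p = 0.0257). Mphosph8 was the exception in direction. It read 1.11, 1.29 and 0.94 in the females and 1.16 and 0.99 in the males of 17 to 21 days, and 1.89 and 1.38 in the females and 1.8, 1.82 and 1.59 in the males of 33 to 44 days. All 5 older mice were above all 5 younger ones, a rise of 0.592 (SE 0.111, adjusted p = 0.0154).

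All 6 deacetylases had differences below 0, and 2 of them passed. Hdac2, a class I deacetylase of the NuRD and Sin3 complexes, fell by 0.444 (SE 0.0922, adjusted p = 0.0173), from 0.588 ± 0.103 to 0.126 ± 0.168 (SD, n = 5 each). Hdac11 fell by 0.443 (SE 0.107, adjusted p = 0.028). Hdac1, the partner of Hdac2 in those complexes, had a difference of -0.454 (SE 0.129, adjusted p = 0.0517) and did not pass. The median of the deacetylases was -0.369, the lowest of the 8 roles, before the correction for block and column. Hdac1 and Hdac11 sit in the same block and column of the second array. No acetyltransferase passed; Kat8 at -0.309 and Kat2b at -0.307 were lowest (adjusted p = 0.113 and 0.0689). No bromodomain gene passed, and Brd2 at -0.359 was lowest (adjusted p = 0.0928).

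Among 20 remodellers 3 fell. Chd1, which binds methylated H3K4 and remodels nucleosomes at active genes, read 1.74 to 2.08 (median 1.89) at 17 to 21 days and 0.96 to 1.56 (median 1.09) at 33 to 44 days. The sets did not overlap and the difference was -0.711 (SE 0.118, adjusted p = 0.0132). Smarcd2, a SWI/SNF subunit, fell by 0.56 (SE 0.117, adjusted p = 0.0175), and Smarca5, the ISWI motor protein, fell by 0.478 (SE 0.116, adjusted p = 0.028). The other 17 lay between -0.0683 for Smarca4 and 0.288 for Smarcc1, and Smarcb1, the brightest remodeller, had a difference of -0.0042 with a 95% interval from -0.2 to 0.192.

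**Figure D1:**
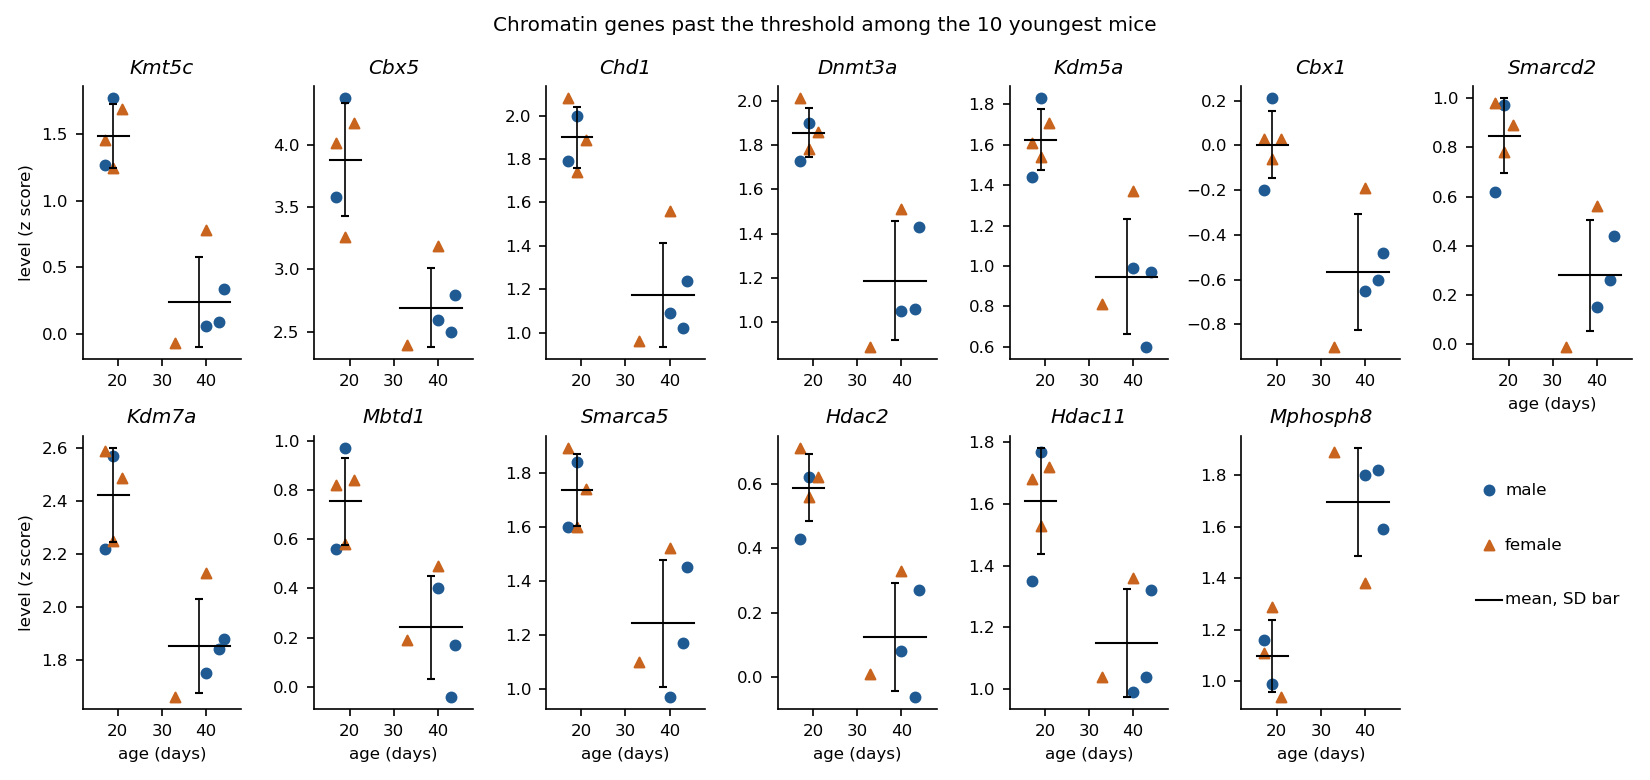
Level (z score, vertical axis) against age in days for the 13 genes past the threshold, 1 point per mouse, blue circles for males and orange triangles for females; the line is the mean of 5 mice and the bar their SD. In 12 panels the mice of 17 to 21 days are the higher cloud, in Mphosph8 the lower one, and the 40-day female lies nearest to the younger mice in all 13.

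The same few mice lay at the edges of the sets in most of these genes. The female of 40 days was the mouse of the older set closest to the younger set in 13 of 13 genes, and the female of 33 days was the farthest in 8 of 13. In the younger set the male of 17 days was closest to the older mice in 8 genes. The male of 19 days and the female of 17 days were farthest from them in 6 genes each. Over all 78 genes the sets did not overlap in 15 (14 lower and 1 higher at 33 to 44 days), or 19.2%, where 8.68% of all spots did not overlap (5.85% lower and 2.83% higher). These 15 held 11 of the 13, all but Cbx1 and Hdac11, and also Hdac1, Kat2b, Kat8 and Brd2.

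Sequence before the gene is shown for the largest fall, for the only rise and for Kdm7a, whose window held the most CpG pairs of the members. Kmt5c lies on chromosome 7 from 4740092 to 4747514, Mphosph8 on chromosome 14 from 56668235 to 56697430 and Kdm7a on chromosome 6 from 39136620 to 39206773 (GRCm38.p6). Each sequence runs 5′ to 3′ towards the gene and stops at the first base of the gene, from RefSeq's promoter table of the same build, with CpG in capitals because CpG is what Dnmt3a methylates. The windows are chr7:4739877-4740091 (plus strand, 11 CpG), chr14:56667998-56668234 (plus strand, 18 CpG) and chr6:39206774-39207023 (minus strand, 56 CpG).
Kmt5c: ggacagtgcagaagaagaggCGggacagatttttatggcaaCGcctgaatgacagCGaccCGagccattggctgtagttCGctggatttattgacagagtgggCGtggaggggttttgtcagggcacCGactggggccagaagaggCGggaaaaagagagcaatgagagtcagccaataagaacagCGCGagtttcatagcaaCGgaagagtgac
Mphosph8: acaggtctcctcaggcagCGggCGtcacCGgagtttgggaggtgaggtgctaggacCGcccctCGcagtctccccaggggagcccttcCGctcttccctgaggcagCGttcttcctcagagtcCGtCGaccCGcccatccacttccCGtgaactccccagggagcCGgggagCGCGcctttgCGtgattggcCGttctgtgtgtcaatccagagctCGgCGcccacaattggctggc
Kdm7a: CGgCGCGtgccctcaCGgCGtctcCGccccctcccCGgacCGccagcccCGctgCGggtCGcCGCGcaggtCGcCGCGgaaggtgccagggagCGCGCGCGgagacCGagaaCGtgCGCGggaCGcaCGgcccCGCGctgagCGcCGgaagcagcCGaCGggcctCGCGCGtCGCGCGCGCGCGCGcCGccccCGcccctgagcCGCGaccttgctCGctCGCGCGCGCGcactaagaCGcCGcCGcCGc
The first 2 windows carry scattered CpG and the Kdm7a window carries runs of it. RefSeq's table held a window for 63 of the 78 members, and the 250 bases before the start that the table uses were read. That start is not always the outermost one of the gene: 24 of the 63 windows lay wholly before the gene, 23 partly and 16 wholly inside it. The observed over expected CpG ratio was at least 0.6 in 52 of them (82.5%), against 70.6% of 5827 genes named on the arrays and 34.5% of 27025 genes in all, whose windows follow the same rule. In the 24 windows wholly before the gene it was 79.2%, and GGGCGG was in 70.8%. The letters GGGCGG, on either strand, were in 44 windows (69.8%, against 60.5% of array genes), CCAAT in 39.7% against 36.9% and TATAAA in 3.17% against 6.59%. Of the 11 genes past the threshold with a window, 10 had a ratio of at least 0.6 and 10 held GGGCGG, but 3 of the 11 windows lay wholly before the gene. A match of letters is a description of the window and not a site.

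Where a spot sat on the array went with its difference. The layout was taken as 16 blocks of 24 lines and 22 columns. Correlations between spots show a repeat of 22, and the division into blocks was not tested. In adjacent lines of a column, spots 22 apart, residuals correlated at 0.5 on the first array and 0.546 on the second. Across the 78 genes the difference between the sets correlated with the median difference of the 23 other spots of the same block and column at r = 0.884, a description over spots that share arrays. All 13 genes past the threshold had the sign of those neighbours, and in 10 of 13 the neighbours' median was at least 0.5 of the gene's own. Columns 7 to 9 held 9 of the 13, and 20 of the 78 members. Cbx5 and Kmt5c, the 2 largest, share block 15 and column 8 of the first array, where the neighbours' median was -0.783.

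Taking away the median shift of each block and column, array by array, left 0 of 78 members past the threshold (limma, smallest adjusted p = 0.0556), and 0 of all spots passed. At an unadjusted p under 0.05 there were 13 members, 16.7%, against 16.3% of all spots. Mphosph8 kept most of its size, 0.532 (SE 0.105, adjusted p = 0.0592), with neighbours at 0.025. Chd1 kept -0.475 (SE 0.094, adjusted p = 0.0592), with neighbours at -0.169. Kmt5c kept -0.428 (adjusted p = 0.0556), Cbx5 -0.379 (adjusted p = 0.115), Kdm5a -0.317 (adjusted p = 0.0646) and Dnmt3a -0.254 (adjusted p = 0.105). In contrast, Hdac2 went to 0.0046, Mbtd1 to 0.0209, Kdm7a to 0.0331 and Hdac11 to -0.0319. Smarca5, Smarcd2 and Cbx1 went to -0.0549, -0.0945 and -0.11. The median share of the difference that was left over the 13 genes was 0.195. The median of the deacetylases moved from -0.369 to -0.0373. With the shift of each whole column taken away instead, 6 members passed, 5 lower and 1 higher (7.69%, against 3.0% of all spots).

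**Figure D2:**
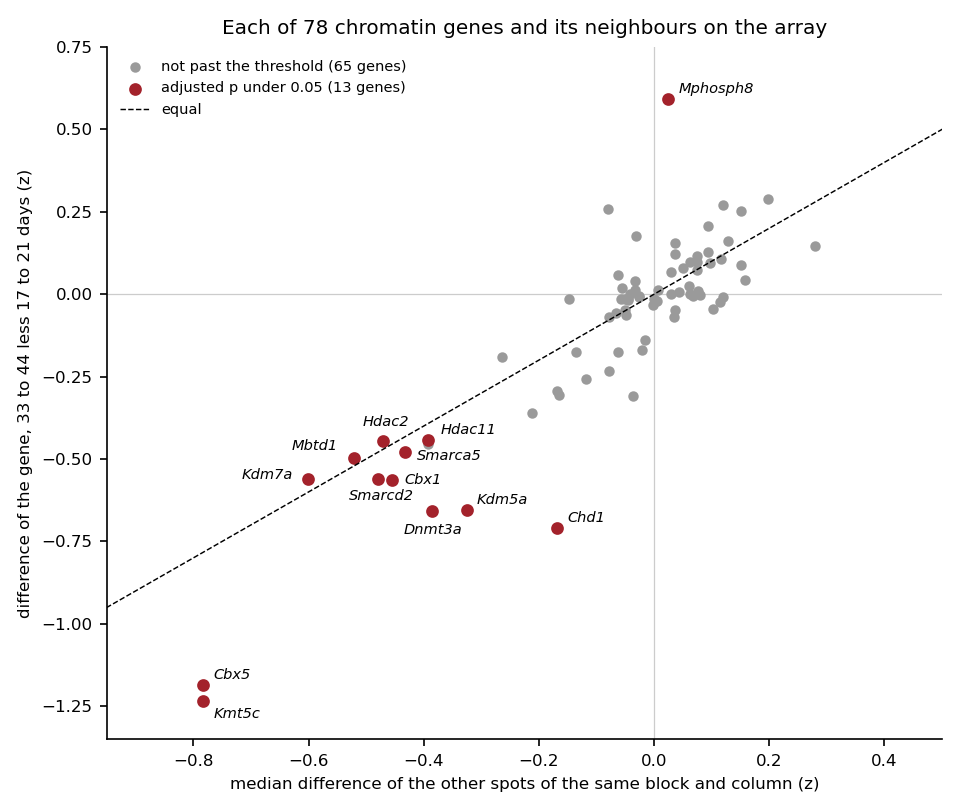
Difference of each of the 78 genes, 33 to 44 less 17 to 21 days (vertical axis, z), against the median difference of the 23 other spots of its block and column (horizontal axis, z); red points are the 13 genes past the threshold and the dashed line marks equality. Hdac2, Hdac11, Mbtd1, Kdm7a and Smarca5 lie close to the line, while Mphosph8, Chd1, Kmt5c and Cbx5 lie far from it.

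Other spots of the same genes seldom repeated the difference. Of the 13 genes, 10 had further spots, 17 in all. Of these 17 spots 9 had the sign of the gene's brightest spot, and 2 passed the threshold, both of them Mbtd1. The second Kmt5c spot differed by -0.0708 (SE 0.1), the second Dnmt3a spot by -0.0383 (SE 0.0893) and the second Chd1 spot by -0.125 (SE 0.0787). The second Mphosph8 spot went the other way, at -0.0983 (SE 0.145). Cbx5 had 4 spots, at -1.19, -0.0917, -0.065 and 0.0075. Kdm5a had the other 2 spots at 0.279 (SE 0.16) and 0.0525 (SE 0.161).

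Mbtd1 gave differences past the threshold in both directions. Its dimmest spot, with a mean of -2.67, rose from -3.13 ± 0.337 to -1.8 ± 0.572 (SD, n = 5 each), by 1.35 (SE 0.25, adjusted p = 0.0154). Another spot fell by 0.582 (SE 0.123, adjusted p = 0.0182) and the remaining one differed by -0.301 (SE 0.121, adjusted p = 0.18). After the position correction the dimmest spot kept 1.5 (adjusted p = 0.054), and the spots that had fallen were at 0.0209 and 0.0162. Over the 38 members with 2 or more spots, the spots of 23 genes had opposite signs. Their brightest and second spots had the same sign in 55.3%, against 51.9% of 1858 such genes on the arrays. The correlation of the brightest with the second spot was 0.09 over the members and 0.06 over all. Which part of each transcript a spot holds, and how far the cDNA of paralogs such as Cbx1 and Cbx5 binds both spots, was not tested.

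**Figure D3:**
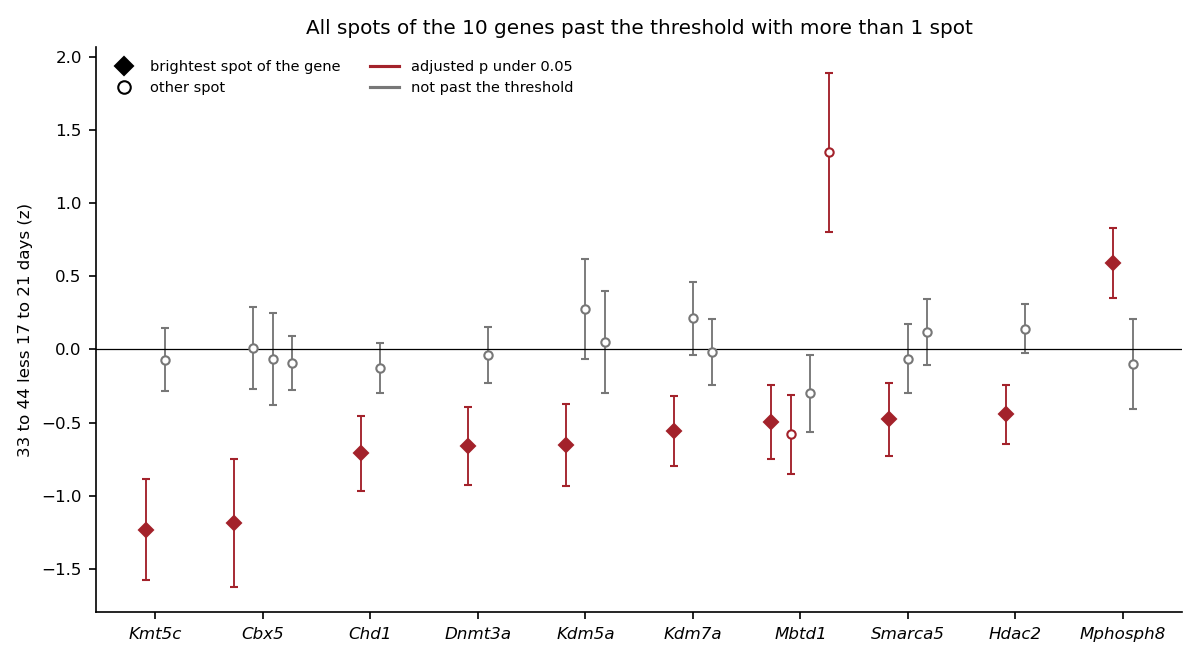
Difference between 33 to 44 and 17 to 21 days (z, with the 95% interval) for every spot of the 10 genes past the threshold that have more than 1 spot; diamonds are the brightest spot, open circles the others, red marks an adjusted p under 0.05. Apart from 2 Mbtd1 spots, one at 1.35 and one at -0.582, no second spot passed.

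The count rested on few mice. Leaving out the male of 19 days or the female of 33 days left 0 of 78 members past the threshold; 18 and 19 members then had an unadjusted p under 0.05. Of all spots 0 passed without either mouse. Without the female of 17 days 7 members passed (8.97%, against 2.42% of all spots), without the female of 21 days 9 (11.5% against 2.68%), and without the female of 40 days 16 (20.5% against 11.5%). The number in a mouse's title divides the arrays at 46, which the labels do not call a batch, and the 2 mice above it, the female of 33 days and a male of 40 days, are both in the older set. Among the 8 other mice 0 members and 0 spots passed (limma, smallest adjusted p = 0.116). Of the members 23 had an unadjusted p under 0.05 (29.5%, against 16.8% of all spots). Kmt5c was at -1.04, Chd1 at -0.584, Dnmt3a at -0.486 and Mphosph8 at 0.474 there. Above 46 there is no mouse of 17 to 21 days, so no value can be had. Title numbers also run in 5 consecutive sets that each hold 1 mouse of every sex and age group. With these 5 runs as a block, an alternative chosen after seeing the data, 0 members and 1 spot passed (smallest member adjusted p = 0.338), with Kmt5c at -0.876, Chd1 at -0.561 and Mphosph8 at 0.386.

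Across all 40 mice no member passed, where 3 of all spots did (0.0178%, with 0.0118% downward and 0.00592% upward). The smallest adjusted p was 0.0537, and 19 members had an unadjusted p under 0.05, 17 of them below 0 (8.32% of spots) and 2 above (5.44% of spots). These 19 are 24.4% of members, against 13.8% of all spots and 15.5% of the brightest spots of all genes. The median slope of the members was -0.0037 z per 100 days, against 0.0027 over all spots. The young mice just described are part of this fit, so the slope is not independent of the difference between their sets. The deacetylases again all had slopes below 0, from -0.0469 for Hdac11 to -0.0043 for Hdac10, with a median of -0.0371 that became -0.0002 after the position correction. In the other 7 roles slopes lay on both sides of 0.

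Dnmt3a, Kdm7a and Smarcd2 shared the smallest adjusted p. Dnmt3a read 0.89 to 2.01 (median 1.62) at 17 to 44 days, 0.97 to 1.72 (median 1.29) at 169 to 194 days, 0.95 to 1.77 (median 1.23) at 476 to 499 days and 0.68 to 1.49 (median 0.95) at 704 to 743 days. The age groups overlapped. Its slope was -0.0663 z per 100 days (SE 0.0166, adjusted p = 0.0537), with neighbours at -0.0453, and was -0.0212 after correction. Kdm7a had a mean of 2.14 ± 0.345, 1.92 ± 0.249, 1.93 ± 0.223 and 1.68 ± 0.145 (SD, n = 10 each) in the 4 age groups from young to old. Its slope of -0.0569 (SE 0.0144) was no larger than that of its neighbours, -0.0684, and became 0.0117. Smarcd2 had a slope of -0.0554 (SE 0.0145) and one of -0.0168 after correction.

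The steepest slopes were those of Kmt5c, -0.112 (SE 0.0315, adjusted p = 0.0575), and Cbx5, -0.11 (SE 0.0328, adjusted p = 0.0712), which share neighbours at -0.0682. After correction they were -0.0403 and -0.0383. Chd1 had a slope of -0.0639 (SE 0.0184, adjusted p = 0.0636) with neighbours at -0.0228, and kept -0.0439. Above 0, Kmt5b, an H4K20 methyltransferase and paralog of Kmt5c, had 0.0178 (SE 0.008, adjusted p = 0.293) and Mbd3l2 had 0.0157 (SE 0.0078, adjusted p = 0.36). After correction 14 members had an unadjusted p under 0.05 (17.9%, against 11.5% of all spots). Those also among the 19 before it were Cbx1, Kmt5c, Chd1, Cbx5, Dnmt3a, Brd2, Kdm5a and Smarcd2. Among mice with title numbers up to 46 the slopes of Dnmt3a, Kdm7a and Chd1 were -0.0698, -0.0745 and -0.0675, and above 46 they were -0.0279, -0.0114 and -0.0353.

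**Figure D4:**
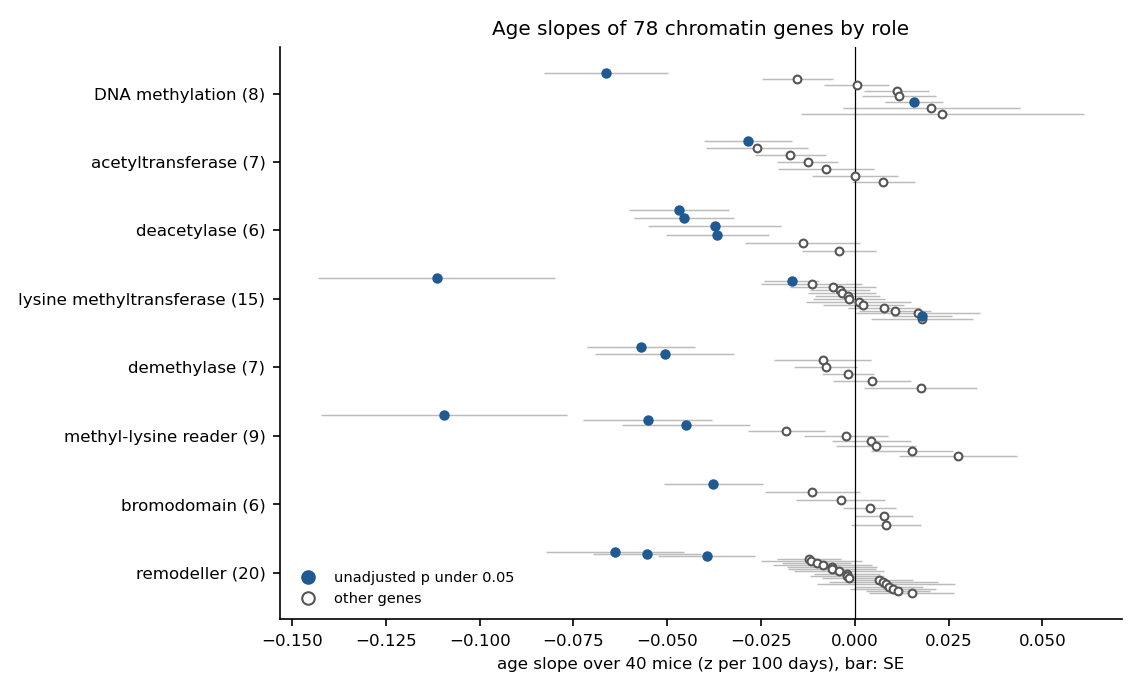
Age slope over 40 mice (horizontal axis, z per 100 days, bar: SE) of each of the 78 genes, grouped by role with the number of genes; filled points have an unadjusted p under 0.05, none has an adjusted p under 0.05. All 6 deacetylases lie left of 0, and Kmt5c and Cbx5 are the 2 points farthest left.

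The count at the threshold depended on single mice. Leaving out 1 mouse gave between 0 and 10 members past it, all downward. It was 0 for 29 of the 40 mice, 10 without the male of 43 days, the male of 40 days or the female of 33 days, and 9 without the 476-day male, the 743-day male or a male of 194 days. It was 8 without the female of 193 days or the male of 730 days, 5 without the male of 186 days, and 3 without the female of 194 days or the female of 180 days. The same 11 left-out mice raised the calls over all spots from 3 to between 261 and 631 (1.54% to 3.73%). With age on a log2 scale 13 members passed, all downward (16.7%, against 7.03% of all spots), and with arrays weighted by quality 15 (19.2% against 7.77%). With the 5 runs of title numbers as a block 6 passed, all downward (7.69% against 2.39%): Dnmt3a, Kdm7a, Smarcd2, Kmt5c, Chd1 and Cbx1.

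Comparisons between whole age classes gave no member past the threshold. From 17 to 44 days to 169 to 194 days no member passed (0 of all spots did), and 9 had an unadjusted p under 0.05. This is 11.5% of members, against 5.94% of spots and 7.24% of the brightest spots of all genes. Of these, 8 were lower (4.6% of spots) at 169 to 194 days, led by Kmt5c at -0.588 (SE 0.233, adjusted p = 0.819), Chd1 at -0.337 (SE 0.139) and Cbx5 at -0.584 (SE 0.249). Ezhip, an inhibitor of the polycomb methyltransferase complex, was the 1 that was higher (1.34% of spots), at 0.327 (SE 0.122, adjusted p = 0.819), with neighbours at 0.007. Without the mice of 17 to 21 days 0 members had an unadjusted p under 0.05, where 0.87% of all spots did. From 169 to 194 days to 704 to 743 days again none passed (0.00592% of spots did), and 4 had an unadjusted p under 0.05 (5.13% of members, 2.5% of spots), all lower in the oldest mice (1.2% of spots). Without the male whose labels conflict, Kat7 alone was left at an unadjusted p under 0.05 (-0.165, SE 0.0634) and no spot passed. The 6 deacetylases were below 0 in both steps, with medians of -0.171 and -0.122 that were -0.0129 and -0.0146 after the position correction.

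Kat7, the acetyltransferase of H3K14 also called HBO1, had the smallest unadjusted p of the members in the later step and did not pass the threshold. It read -0.33 to 0.11 (median 0.03) at 169 to 194 days and -0.47 to -0.03 (median -0.14) at 704 to 743 days. The groups overlapped, and all 10 of the oldest mice were below the median of the 6-month mice. Since Kat7 was picked for its p in this step, these levels are only a description. The difference was -0.159 (SE 0.0608, limma unadjusted p = 0.0129, adjusted p = 0.999), with neighbours at -0.004, and was -0.138 after the position correction. Its level at 17 to 44 days, -0.125 ± 0.0735 (SD, n = 10), was close to that of the oldest mice, -0.169 ± 0.135 (SD, n = 10). Kdm7a at -0.243, Dnmt3a at -0.271 and Smarcd2 at -0.231 were the other 3, with neighbours at -0.261, -0.142 and -0.122. In a slope fitted to the 30 adult mice alone no member and no spot passed. The same 4 genes had an unadjusted p under 0.05 (5.13% of members, 2.59% of spots, 1.53% downward and 1.07% upward). Their slopes were -0.0447 for Kdm7a, -0.0493 for Dnmt3a, -0.0299 for Kat7 and -0.0419 for Smarcd2. The mice of the later step are all in this slope too, so it is not a second test of these genes.

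**Figure D5:**
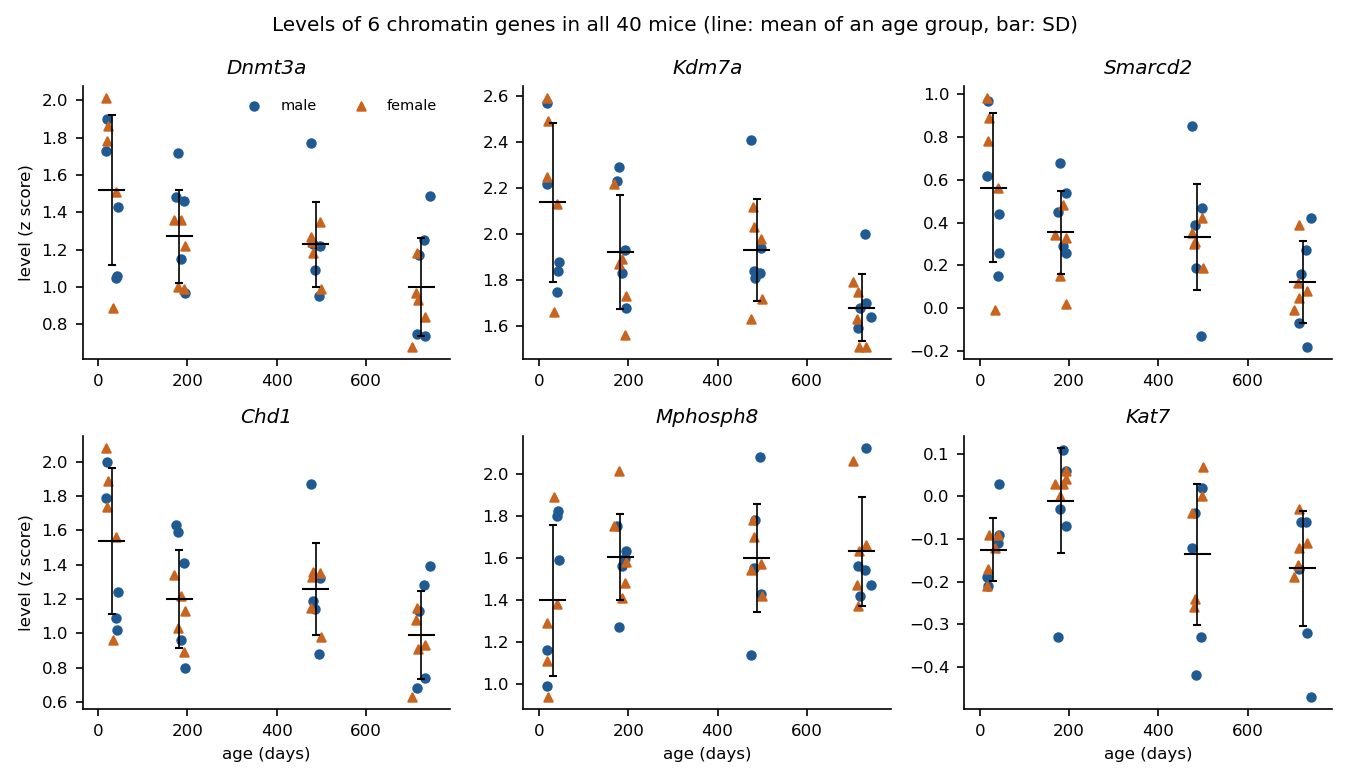
Level (z score) against age in days for 6 members in all 40 mice, blue circles for males and orange triangles for females; the line is the mean of 10 mice and the bar their SD. Dnmt3a, Kdm7a, Smarcd2 and Chd1 have their highest values in the youngest mice, Mphosph8 its lowest, and Kat7 is highest at 169 to 194 days.

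In the oldest mice Cbx5 had a mean of 2.35 ± 0.44 and Kmt5c of -0.1 ± 0.435 (SD, n = 10 each), without the position correction. Mphosph8 had a mean of 1.6 ± 0.204, 1.6 ± 0.255 and 1.63 ± 0.259 (SD, n = 10 each) in the 3 older age groups, close to the 1.7 ± 0.209 (SD, n = 5) of 33 to 44 days. These levels are a description, since the genes were picked for their difference among the youngest mice.

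For male less female no member and no spot passed, and 1 member had an unadjusted p under 0.05 (1.28% of members, 1.45% of spots). This was Setd4, a SET-domain methyltransferase, higher in males (0.574% of spots), at 0.084 (SE 0.0403, 95% interval from 0.0023 to 0.166). Over the members the values ran from -0.0825 for Kat6b and Smarcc2 to 0.171 for Dnmt3b (SE 0.198), and leaving out 1 mouse moved Dnmt3b between -0.031 and 0.236. No member and no spot passed for a difference of the age slope between the sexes, and 4 had an unadjusted p under 0.05 (5.13%, against 2.01% of spots, 1.15% below 0 and 0.852% above), all below 0: Kat6b at -0.0425, Smarca1 at -0.0382, Smarcal1 at -0.0368 and Kdm4a at -0.062 z per 100 days, male less female.

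A few other chromatin genes passed as well. Of 93 measured genes outside the symbol rule, each at its brightest spot, 4 fell and 1 rose between 17 to 21 and 33 to 44 days. In all 5.38% passed, against 7.48% of all spots and 9.2% of the brightest spots of all genes. Falls were 4.3%, against 5.52% and 7.34%. With so few genes past the threshold no difference from these shares is claimed. Jarid2, a partner of the polycomb methyltransferase, fell by 0.849 (SE 0.158, adjusted p = 0.0143), Sin3a by 0.664, Men1 by 0.606 and Trim28 by 0.458. The histone chaperone Asf1a rose by 0.404 (SE 0.105, adjusted p = 0.031). After the position correction these were -0.452, -0.0877, -0.0294, -0.317 and 0.226. Over the 40 mice none of the 93 passed, and 13 had an unadjusted p under 0.05, 8 below 0 and 5 above. This is 14.0%, against 13.8% of all spots and 15.5% of the brightest spots of all genes.

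Markers of other cells moved with the young sets, where 5.52% of all spots fell. Of 5 erythroid genes 4 fell, with list means of 1.3 to 1.65 at 17 to 21 days and 0.674 to 1.13 at 33 to 44 days. Of 6 fibroblast and matrix genes 3 fell, with list means of 1.12 to 1.33 and 0.81 to 1.03. After the position correction no spot passed, and Hba-a2 went from -1.26 to -0.624, Alas2 from -0.527 to -0.54, Col1a2 from -0.328 to 0.0067 and Col1a1 from -0.422 to -0.34. Of 18 genes of proliferating cells 1 fell, Ccna2, and list means overlapped, at 0.286 to 0.441 and 0.316 to 0.406. In the lists for alveolar type I and II, club and ciliated, endothelial, smooth muscle, macrophage, B and plasma, neutrophil and liver cells no gene passed. Over the 40 mice the matrix gene Sparc fell and the immunoglobulin gene Ighm rose, and no other listed marker passed. Their part in the differences of the chromatin genes was not tested.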

How the data were processed

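Lung RNA of 40 mice was measured on 80 arrays, 2 per mouse. The authors deposited z scores, with mean 0 and SD 1 on each array; for the score's underlying scale and background step the sources used here give nothing, and depth has no meaning for arrays, so the number of mice limits precision. Symbols came from the platform annotation. Members, roles and lists were chosen with earlier results of these data known. Each array table was fitted with limma 3.58.1 in R 4.3.3, and p-values were adjusted by Benjamini-Hochberg over all spots of both arrays at 0.05. There were 7 comparisons: the age slope over 40 mice and over 30 adult mice (z per 100 days), 2 steps between age classes, sex, sex by age, and the 2 sets of the youngest class. These share mice and are not independent. The position correction subtracts, on each array, the median deviation of a block and column. Genes were named by rule: those past the threshold, and in each role the brightest and those of smallest p. Kmt5c, Mbtd1 and Mphosph8 were named because an earlier account gave their values. How the fit behaves when residuals of nearby spots correlate, as they did here, was not tested. Alternatives covered scaling, dim spots, variance model, array weights, position, title number (also its 5 runs as a block, added after seeing the data), age scale, other spots of a gene and left-out mice. Promoter windows came from RefSeq (GRCm38.p6).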

Additional observations from a re-analysis of the deposited data

Results flagged for a closer look

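A single mouse stood apart from the rest of its age group in 25 of 276 groups tested over 46 named genes. The bound used gives about 1 in 20 by chance. These groups share mice, and the youngest class counts beside its own 2 sets. Many of the genes were named for small p, so no excess over chance is claimed. The male of 476 days was the mouse apart in 6 genes, at 3.92 for Cbx5, 1.87 for Chd1, 1.77 for Dnmt3a, 1.66 for Hdac11, 1.43 for Kmt5c and -0.87 for Kat8. It was the highest or lowest of its group in 50.0% of the members and in 33.1% of all spots, where the other mice had a median of 12.5% and a maximum of 36.3%. The male of 43 days was apart in 4 genes. It read 0.01 for Brd2 and 1.06 for Kat6a, each in both the whole youngest group and its 33 to 44 day mice, and -1.3 for Ezhip and -0.82 for Kdm4a. The male of 44 days read 0.03 for Kat7 in both of those groups, and a male of 174 days read -0.33 for it. The female of 704 days read 2.85 for Mbd6, with the next mouse at 0.84, and 0.61 for Kmt2b. The female of 169 days read -5.22 for Dnmt3b, with the next mouse at -1.51. The other single values were -0.86 for Brd9 in the male of 19 days, 0.33 for Chd4 in the female of 21 days, -0.14 for Ezhip in a female of 712 days, -0.71 for Mbd3l2 in a male of 194 days, 0.36 for Setd1b in a male of 40 days, 0.57 for Smarcc1 in a female of 180 days and -0.41 for Smarce1 in the female of 17 days.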

How the results depend on the processing

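For 33 to 44 against 17 to 21 days, 12 members lower and 1 higher became 0 and 0 in 3 settings, which called 0 spots. These were title number above 46 as a block, title numbers up to 46 alone and the correction by block and column. With the correction by column alone 5 were lower and 1 higher (7.69% of members, against 3.0% of all spots). With the 5 runs of title numbers as a block, chosen after seeing the data, it was 0 and 0. Under the block-and-column correction the sign turned for Hdac2 (0.0046), Kdm7a (0.0331) and Mbtd1 (0.0209). Leaving out 1 mouse gave 0 to 14 lower and 0 to 2 higher; the male of 19 days and the female of 33 days each gave 0. For the slope over 40 mice, 0 members lower became 3 with median and MAD scaling, 8 without the dimmest 33.3% of spots, 3 with trend and robust variance, 15 with array weights, 13 with log2 of age and 6 with the 5 runs as a block, and 0 to 10 without 1 mouse. Over all spots these 6 settings called 1.6%, 4.07%, 0.698%, 7.77%, 7.03% and 2.39%, against 0.0178%. The cause of these changes was not tested. The labels give no number that groups share, and do not say that a run of title numbers is a batch. Spots near or below the array mean have no stated background level, so how far dim spots such as the -2.67 Mbtd1 spot read signal is not known.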
